A study of Homo sapiens with 6 samples.

Results

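Transcripts of 40 genes for collagens, laminins, other matrix glycoproteins and the enzymes that fold and cross-link them were followed after siRNA transfection of ACHN, a cell line established from human renal adenocarcinoma. The members were taken by gene symbol from a list chosen with earlier results of these data known. Counts over the members are thus a description only. All 40 were found among the 60409 rows of each deposited table. The cells received a negative control siRNA (NC), siMEX3A_1 or siMEX3A_2, the last being different siRNAs against MEX3A, an RNA-binding protein with KH domains. RNA was taken 48 h later from 2 libraries in each group, so 6 in all. The cells carried no other labelled treatment or genetic change, and separate cultures are not mentioned in the labels. The spread behind each p-value is that of the 6 libraries alone and may be technical, and all of them come from 1 cell line.

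Epithelial cells rest on a basement membrane, a sheet in which a laminin network and a collagen IV network are joined by nidogen and by proteoglycans such as perlecan and agrin. Laminins are trimers of an alpha, a beta and a gamma chain, and collagens are trimers of chains that are hydroxylated and folded in the endoplasmic reticulum before they are secreted. Outside the cell, lysyl oxidases cross-link the fibres, and glycoproteins such as fibronectin and the matricellular proteins SPARC and thrombospondin bind collagen, growth factors and cell-surface receptors.

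Library totals were even, between 18825750 and 19158723 counts. MEX3A had 94 and 109 counts in NC, 56 and 64 with siMEX3A_1, and 73 and 76 with siMEX3A_2. Its log2 fold change against NC was -0.71 (SE 0.17, edgeR adjusted p = 0.00655) with siMEX3A_1 and -0.42 (SE 0.17, edgeR adjusted p = 0.0644, not called) with siMEX3A_2. The kidney and epithelial markers PAX8, PAX2, EPCAM, KRT8, KRT18, KRT19 and CA12 were all detected. Their summed normalized count was 39936 to 41348 in NC, 59273 to 63400 with siMEX3A_1 and 35669 to 37522 with siMEX3A_2. The sum does not stand for each of the 7 markers. With siMEX3A_1, 3 were called higher and 2 lower (27% and 25.9% of all tested genes). With siMEX3A_2, 2 were called higher and 5 lower (25.2% and 25.7%). Of 6 fibroblast markers, THY1 made up most of a sum that was 12727 to 12860 in NC, 6141 to 6822 with siMEX3A_1 and 5304 to 5390 with siMEX3A_2. The fibroblast markers DCN, LUM, FAP and PDGFRA stayed at 10 counts or fewer in every library. All 4 endothelial markers in the tables stayed under 10 counts, and of 5 immune markers CD3E had 0 counts everywhere and the highest value was 19 (LYZ). In such bulk samples, fewer cells of a type and less RNA per cell cannot be told apart.

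A normalized count is a count divided by the scaled size of its library, and a gene was called when its edgeR adjusted p was under 0.05. THBS2 (1 to 11 counts) and LAMA4 (2 to 7 counts) did not pass the filter on low counts, which left 38 of the 40 genes tested. With siMEX3A_1, 28 of the 38 were called (52.9% of all 18583 tested genes were), 14 higher than NC and 14 lower (27% and 25.9% of all). With siMEX3A_2, 27 were called (50.9% of all), 8 higher and 19 lower (25.2% and 25.7% of all). In these comparisons the libraries of the groups did not overlap for 15 members above and 18 below NC with siMEX3A_1 (74.2% of all tested genes did not overlap) and for 12 above and 22 below with siMEX3A_2 (75.7%). Called changes of at least 2-fold numbered 3 up and 3 down with siMEX3A_1 (7.02% and 9.8% of all tested genes) and 2 up and 10 down with siMEX3A_2 (5.86% and 7.53%). The median log2 fold change of the 38 was -0.07 with siMEX3A_1 and -0.38 with siMEX3A_2, where that of all tested genes was -0.01 and -0.00. Both comparisons use the same NC libraries, so the siRNAs were also compared directly: 29 of the 38 were called (51.6% of all), 20 higher with siMEX3A_1 than with siMEX3A_2 and 9 lower (26% and 25.5% of all). Of these, 7 were at least 2-fold higher and 1 at least 2-fold lower (6.66% and 8.22% of all), and the libraries did not overlap for 21 above and 11 below (74.5% of all). The plot of fold changes for the 38 genes sets both siRNAs side by side.

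**Figure D1:**
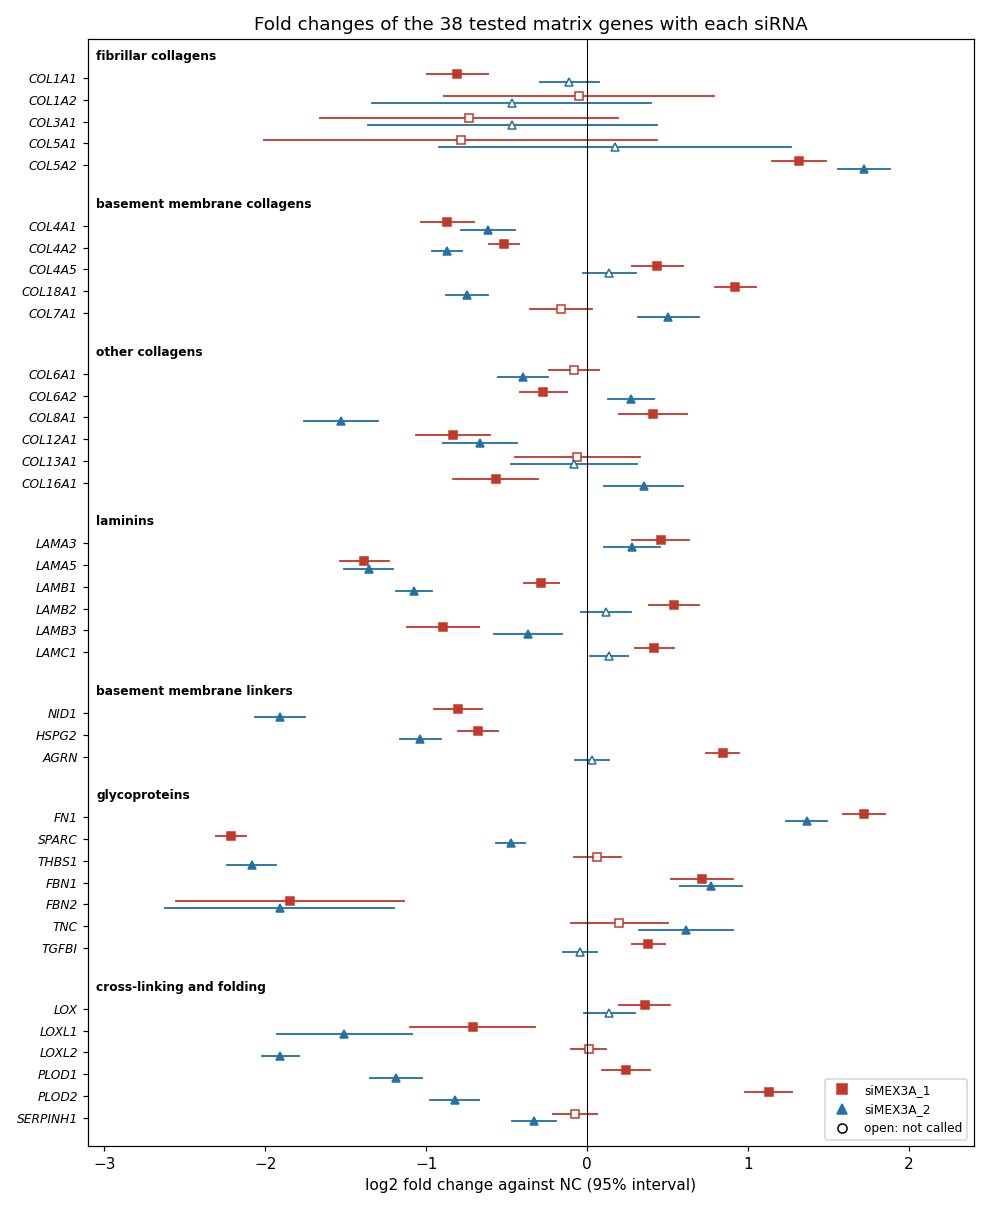
Log2 fold change against NC (x axis) of the 38 tested matrix genes, grouped by role, with 95% intervals from edgeR; squares are siMEX3A_1, triangles siMEX3A_2, and open symbols were not called. FN1 and COL5A2 lie right of 0 with both siRNAs, SPARC lies farthest left with siMEX3A_1 (-2.21) and THBS1 with siMEX3A_2 (-2.09), while COL18A1, COL8A1, PLOD1 and PLOD2 lie on opposite sides of 0.

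FN1, whose product forms the fibrils to which cells and collagens attach, held 20.2% and 21.1% of the counts of the 40 genes in NC. Its share was 48.0% and 49.4% with siMEX3A_1 and 52.2% and 52.5% with siMEX3A_2. The remaining 39 genes together took 0.989% and 1.04% of all counts of a library in NC, 0.864% and 0.896% with siMEX3A_1, and 0.607% and 0.618% with siMEX3A_2. FN1 took 0.251% and 0.278% of all counts in NC, 0.798% and 0.874% with siMEX3A_1, and 0.663% and 0.682% with siMEX3A_2. As shares of all counts, FN1 and the remainder thus moved in opposite directions with each siRNA. No library of an siRNA group overlapped NC in either of these shares. The remainder is a sum on which abundant genes weigh most, and is not a trait of each gene in it. SPARC had 23236 and 22907 counts in NC and 4867 and 4776 with siMEX3A_1. THBS1 had 35186 and 32100 in NC and 7868 and 7724 with siMEX3A_2. Members called higher numbered 14 and 8 with the siRNAs, FN1 included (27% and 25.2% of all tested genes).

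**Figure D2:**
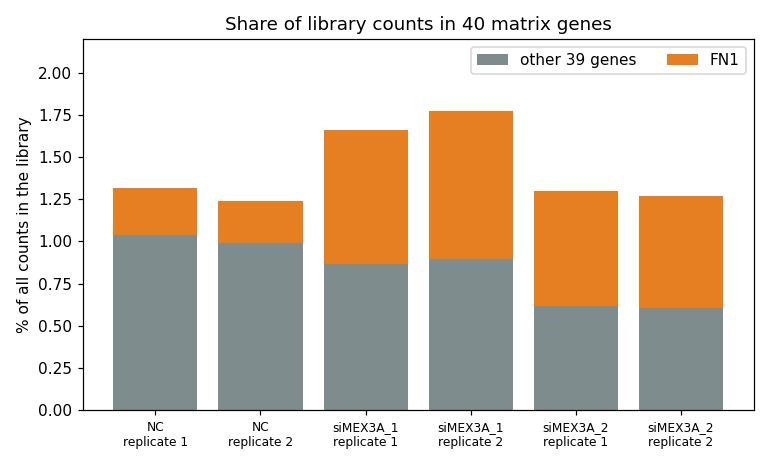
Percent of all counts of each library (y axis) that fell on FN1 (orange) and on the other 39 matrix genes (grey), with 1 bar per library. The orange part grows from at most 0.278% in NC to at least 0.663% in the siRNA libraries, and the grey part shrinks.

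Of 7 tested glycoprotein and matricellular genes, 3 rose and 2 fell with siMEX3A_1 (27% and 25.9% of all tested genes), and 3 rose and 3 fell with siMEX3A_2 (25.2% and 25.7%). FN1 had 52096 and 46532 normalized counts in NC, 154640 and 170664 with siMEX3A_1, and 128502 and 125066 with siMEX3A_2. All 4 siRNA libraries lay above both NC libraries. FN1 rose by 1.72 on the log2 scale with siMEX3A_1 (SE 0.06, 3.3-fold, edgeR adjusted p = 2.63e-08) and by 1.36 with siMEX3A_2 (SE 0.06, 2.57-fold, edgeR adjusted p = 2.06e-07), and it was higher with siMEX3A_1 in the direct comparison (0.36, SE 0.06, edgeR adjusted p = 0.000491). SPARC, a collagen-binding protein that modulates adhesion, had 23071 and 22340 normalized counts in NC, 4921 and 4873 with siMEX3A_1, and 16085 and 16563 with siMEX3A_2. The siRNA libraries were all below NC, and those of siMEX3A_1 were the lowest. SPARC fell by 2.21 on the log2 scale with siMEX3A_1 (SE 0.04, edgeR adjusted p = 4.98e-09) and by 0.48 with siMEX3A_2 (SE 0.04, edgeR adjusted p = 9.65e-06), and the siRNAs differed by -1.74 (SE 0.04, edgeR adjusted p = 1.05e-08). The ratio of FN1 to SPARC counts within a library was therefore 2.26 and 2.08 in NC, 31.4 and 35.0 with siMEX3A_1, and 7.99 and 7.55 with siMEX3A_2.

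The regions in front of both genes are shown because these were the largest rise and the largest fall among the members with siMEX3A_1. Each runs from 250 bases before to 50 bases after the gene's start in RefSeq on GRCh38.p14, 5′ to 3′ on the gene's strand. Capitals mark matches on either strand, overlapping ones included, to 6 motifs: the cAMP response element with the letters TGACGTCA, the CCAAT box, the GC box with the letters GGGCGG, the TATA box with the letters TATAAA, the AP-1 site with the letters TGANTCA, and the E-box with the letters CACGTG.
FN1 (chr2:215436019-215436318, minus strand): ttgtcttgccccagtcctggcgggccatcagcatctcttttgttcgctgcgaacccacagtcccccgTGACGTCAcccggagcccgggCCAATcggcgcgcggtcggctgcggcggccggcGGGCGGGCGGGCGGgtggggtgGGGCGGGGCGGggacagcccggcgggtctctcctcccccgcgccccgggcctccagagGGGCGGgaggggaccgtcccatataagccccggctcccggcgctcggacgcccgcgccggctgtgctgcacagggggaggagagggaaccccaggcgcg
SPARC (chr5:151686866-151687165, minus strand): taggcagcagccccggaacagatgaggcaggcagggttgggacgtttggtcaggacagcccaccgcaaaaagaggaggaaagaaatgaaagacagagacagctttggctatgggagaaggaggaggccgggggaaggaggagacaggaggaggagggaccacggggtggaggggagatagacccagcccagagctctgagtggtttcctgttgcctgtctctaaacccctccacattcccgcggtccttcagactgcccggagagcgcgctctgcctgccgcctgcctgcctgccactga
In the FN1 window the cAMP response element began at position -183 from the start, CCAAT at -162, and GC boxes at -129, -125, -121, -107, -102 and -49. The SPARC window held none of these letters. TGACGTCA was in 1.85% of the 35116 windows of this kind, CCAAT in 34.6% and GGGCGG in 45%. Of the 32 members with such a window, FN1 alone held TGACGTCA. CCAAT was in 34.4% of the 32 and GGGCGG in 78.1%. TATAAA was in 15.6% of the 32 and in 11.5% of all windows, TGANTCA in 6.25% and 7.71%, and CACGTG in 3.12% and 7.26%. These shares differ in unit. The 32 members have 39 windows, and a member was counted when any of its windows matched, which can only raise its share. The share over all windows was counted per window. A match is a description of letters and no evidence of binding.

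Thrombospondin 1 (THBS1), a matricellular protein that can activate latent TGF-beta, moved with one siRNA. It had 34937 and 31305 normalized counts in NC, 32453 and 36759 with siMEX3A_1, and 7870 and 7735 with siMEX3A_2. The siMEX3A_1 libraries overlapped NC and those of siMEX3A_2 lay far below. THBS1 fell by 2.09 on the log2 scale with siMEX3A_2 (SE 0.07, 4.24-fold, edgeR adjusted p = 5.89e-08). With siMEX3A_1 its log2 fold change was 0.06 (95% interval -0.08 to 0.21, edgeR adjusted p = 0.451, not called). It was called at 0.16 without siMEX3A_1 replicate 1 (edgeR adjusted p = 0.0464), with adjusted p-values between 0.0464 and 0.985 over all alternatives. The direct difference between the siRNAs was 2.15 (SE 0.07, edgeR adjusted p = 2.64e-08).

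The fibrillins, which build the microfibrils that scaffold elastic fibres, went apart. FBN1 rose from 292 ± 16.9 normalized counts in NC (SD, n = 2 libraries, as for all means here) to 478 ± 35.3 with siMEX3A_1 and 497 ± 9.59 with siMEX3A_2, log2 fold changes of 0.71 and 0.77 (SE 0.09 each). FBN2 was a low transcript with 57 and 70 counts in NC, 14 and 20 with siMEX3A_1, and 13 and 20 with siMEX3A_2. It fell by 1.85 (SE 0.31) and 1.91 (SE 0.32) on the log2 scale, and the direct difference between the siRNAs had an interval from -0.76 to 0.89. TGFBI, a TGF-beta-induced adhesion protein, rose by 0.38 with siMEX3A_1 (SE 0.05), had a log2 fold change of -0.05 with siMEX3A_2 (not called), and differed between them by 0.43 (SE 0.05). Tenascin C (TNC), which loosens cell contacts with fibronectin, rose by 0.61 with siMEX3A_2 (SE 0.13, edgeR adjusted p = 0.00323) and was at 0.20 with siMEX3A_1 (SE 0.13, not called). Its direct difference of -0.41 (SE 0.13, edgeR adjusted p = 0.0224) ended without any 1 of the 4 siRNA libraries (0.0539 to 0.107), without a low-count filter (0.0540) and with DESeq2 (0.148), over a range of 0.00967 to 0.148. TNC was called with siMEX3A_1 at 0.40 without NC replicate 1 (edgeR adjusted p = 0.0409, range over alternatives 0.0409 to 0.870).

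**Figure D3:**
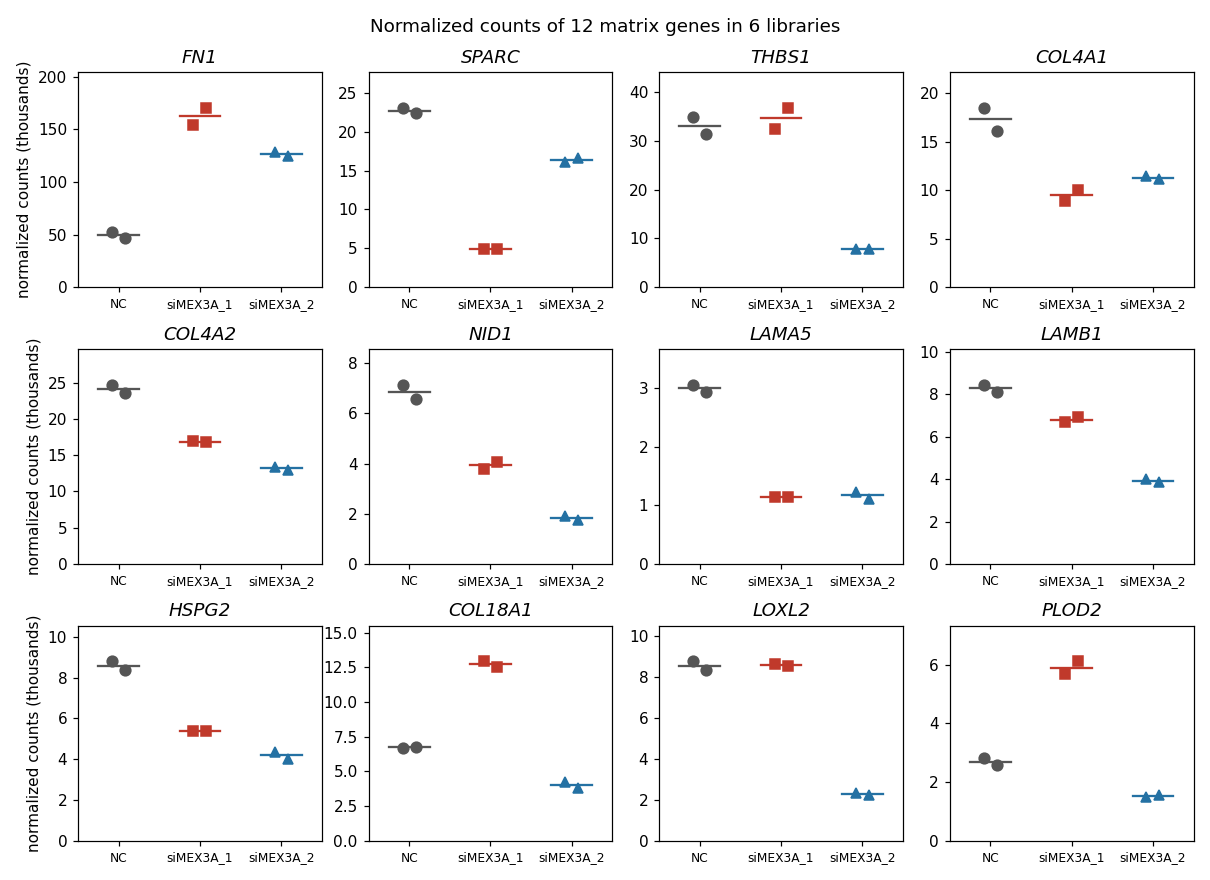
Normalized counts (y axis, from 0, in the multiples its label gives) of 12 matrix genes in each library; points are libraries, lines the mean of a group of 2. FN1 is higher and SPARC, COL4A1, COL4A2, NID1, LAMA5, LAMB1 and HSPG2 are lower in all 4 siRNA libraries than in NC, while THBS1 and LOXL2 are low in siMEX3A_2 alone among the groups drawn.

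Of 5 basement membrane collagen genes, 2 rose and 2 fell with siMEX3A_1 (27% and 25.9% of all tested genes), and 1 rose and 3 fell with siMEX3A_2 (25.2% and 25.7%). COL4A1 and COL4A2, which assemble into the collagen IV trimer found in nearly all basement membranes, fell with both siRNAs. COL4A2 had 24728 and 23520 normalized counts in NC, 16945 and 16792 with siMEX3A_1, and 13408 and 12941 with siMEX3A_2. Its 3 groups did not overlap. COL4A2 fell by 0.52 (SE 0.04, edgeR adjusted p = 4.87e-06) and by 0.87 (SE 0.04, edgeR adjusted p = 4.04e-07) on the log2 scale. COL4A1 had 18494 and 16127 normalized counts in NC, 8889 and 10065 with siMEX3A_1, and 11409 and 11173 with siMEX3A_2. It fell by 0.87 (SE 0.07, edgeR adjusted p = 7.08e-06) and by 0.62 (SE 0.07, edgeR adjusted p = 8.78e-05). The siRNA with the lower level was thus siMEX3A_1 for COL4A1 and siMEX3A_2 for COL4A2. In the direct comparison COL4A2 was higher with siMEX3A_1 by 0.36 (SE 0.04, edgeR adjusted p = 6.44e-05) and COL4A1 lower by -0.25 (SE 0.07, edgeR adjusted p = 0.0162). The COL4A1 difference had adjusted p-values of 0.00302 to 0.107 over the alternatives and was no longer called without a low-count filter (0.0507), nor without siMEX3A_1 replicate 1 (-0.16, edgeR adjusted p = 0.107), siMEX3A_2 replicate 1 (0.106) or siMEX3A_2 replicate 2 (0.0679). The ratio of COL4A1 to COL4A2 counts was 0.748 and 0.686 in NC, 0.525 and 0.599 with siMEX3A_1, and 0.851 and 0.863 with siMEX3A_2.

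The stretch between the collagen IV genes is shown because they are neighbours read in opposite directions and both fell. On GRCh38.p14 their RefSeq starts lie 127 bases apart on chromosome 13, COL4A1 at 110307157 and COL4A2 at 110307284, so the 300-base windows share 226 bases. Capitals mark the same motifs as above.
COL4A1 (chr13:110307108-110307407, minus strand): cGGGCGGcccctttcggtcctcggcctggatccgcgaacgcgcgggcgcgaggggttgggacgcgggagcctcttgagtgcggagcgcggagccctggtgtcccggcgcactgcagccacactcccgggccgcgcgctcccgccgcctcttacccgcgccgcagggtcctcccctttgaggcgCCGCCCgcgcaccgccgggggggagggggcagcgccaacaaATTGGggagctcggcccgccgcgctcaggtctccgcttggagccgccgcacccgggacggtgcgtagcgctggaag
COL4A2 (chr13:110307034-110307333, plus strand): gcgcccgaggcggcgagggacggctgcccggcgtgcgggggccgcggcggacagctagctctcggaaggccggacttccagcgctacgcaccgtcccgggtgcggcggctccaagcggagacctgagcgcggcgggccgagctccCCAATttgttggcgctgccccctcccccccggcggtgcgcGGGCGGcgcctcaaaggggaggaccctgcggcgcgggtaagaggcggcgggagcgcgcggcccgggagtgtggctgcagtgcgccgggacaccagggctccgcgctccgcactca
A single CCAAT at 110307179 to 110307183 and a single GC box at 110307219 to 110307224 lie between the starts and appear in both windows on opposite strands. A further GC box lies in the COL4A1 window alone, at -249.

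COL18A1, the basement membrane collagen whose end fragment is endostatin, had 6697 and 6748 normalized counts in NC, 12924 and 12532 with siMEX3A_1, and 4224 and 3789 with siMEX3A_2. Both siMEX3A_1 libraries were above NC and both siMEX3A_2 libraries below it. COL18A1 rose by 0.92 (SE 0.06, edgeR adjusted p = 8.1e-07) and fell by 0.75 (SE 0.06, edgeR adjusted p = 5.4e-06) on the log2 scale, with a direct difference of 1.67 (SE 0.06, edgeR adjusted p = 3.61e-08). COL4A5, a collagen IV chain of the kidney filter and tubule, rose by 0.44 with siMEX3A_1 (SE 0.07) and was at 0.14 with siMEX3A_2 (95% interval -0.03 to 0.30, not called). COL7A1, which forms anchoring fibrils, rose by 0.50 with siMEX3A_2 (SE 0.08) and was at -0.16 with siMEX3A_1 (95% interval -0.36 to 0.03, not called). COL7A1 was called with siMEX3A_1 without its replicate 1 (-0.25, edgeR adjusted p = 0.0433, range over alternatives 0.0433 to 0.587). The direct difference was -0.67 for COL7A1 (SE 0.08) and 0.30 for COL4A5 (SE 0.07, edgeR adjusted p = 0.00576, and 0.0683 without siMEX3A_2 replicate 2, the range over alternatives being 0.00297 to 0.0683).

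Of 6 tested laminin genes, 3 rose and 3 fell with siMEX3A_1 (27% and 25.9% of all tested genes), and 1 rose and 3 fell with siMEX3A_2 (25.2% and 25.7%). Among alpha chains, LAMA5 had 3054 and 2928 normalized counts in NC, 1149 and 1142 with siMEX3A_1, and 1225 and 1109 with siMEX3A_2. The siRNA libraries overlapped each other and lay well below NC. LAMA5, the chain of mature epithelial basement membranes, fell by 1.38 (SE 0.07, edgeR adjusted p = 1.91e-07) and by 1.36 (SE 0.07, edgeR adjusted p = 5.01e-07) on the log2 scale, and the interval of the direct difference ran from -0.18 to 0.13. LAMA3, the alpha chain of laminin-332 in epithelial anchoring complexes, rose by 0.46 with siMEX3A_1 (SE 0.08) and by 0.28 with siMEX3A_2 (SE 0.08, edgeR adjusted p = 0.0144). That siMEX3A_2 call ended without NC replicate 2 (0.131) and without siMEX3A_2 replicate 2 (0.118), the adjusted p running from 0.00399 to 0.131 over the alternatives. Within a library the ratio of LAMA5 to LAMA3 counts was 1.34 and 1.43 in NC, 0.410 and 0.365 with siMEX3A_1, and 0.487 and 0.406 with siMEX3A_2.

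Of the beta chains, LAMB1 had 8458 and 8116 normalized counts in NC, 6683 and 6908 with siMEX3A_1, and 4002 and 3847 with siMEX3A_2. The groups were separate and siMEX3A_2 was the lowest. LAMB1 fell by 0.29 (SE 0.05, edgeR adjusted p = 0.00077) and by 1.08 (SE 0.05, edgeR adjusted p = 3.29e-07) on the log2 scale, with a direct difference of 0.79 (SE 0.05). LAMB2, the beta chain of the glomerular filter, rose by 0.54 with siMEX3A_1 (SE 0.07) and was at 0.12 with siMEX3A_2 (not called). LAMB3, the beta chain of laminin-332, fell by 0.90 with siMEX3A_1 (SE 0.10) and by 0.37 with siMEX3A_2 (SE 0.09, edgeR adjusted p = 0.00902). The siMEX3A_2 call of LAMB3 ended without NC replicate 2 (0.0502), without siMEX3A_2 replicate 1 (0.0653) or 2 (0.0521), with DESeq2 (0.119) and in the authors' deposited table (0.142), the adjusted p running from 0.00582 to 0.142. LAMC1, the gamma chain of most laminins, had 13401 and 12699 normalized counts in NC, 16590 and 18263 with siMEX3A_1, and 14095 and 14567 with siMEX3A_2. It rose by 0.42 with siMEX3A_1 (SE 0.05, edgeR adjusted p = 0.00012) and was at 0.14 with siMEX3A_2 (SE 0.05, edgeR adjusted p = 0.0607, not called). The siMEX3A_2 value of LAMC1 was called in a fit of those groups alone (0.0264) and in the authors' deposited table (0.0176), with a range over alternatives of 0.0176 to 0.306. The ratio of LAMB1 to LAMC1 counts was 0.631 and 0.639 in NC, 0.403 and 0.378 with siMEX3A_1, and 0.284 and 0.264 with siMEX3A_2.

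**Figure D4:**
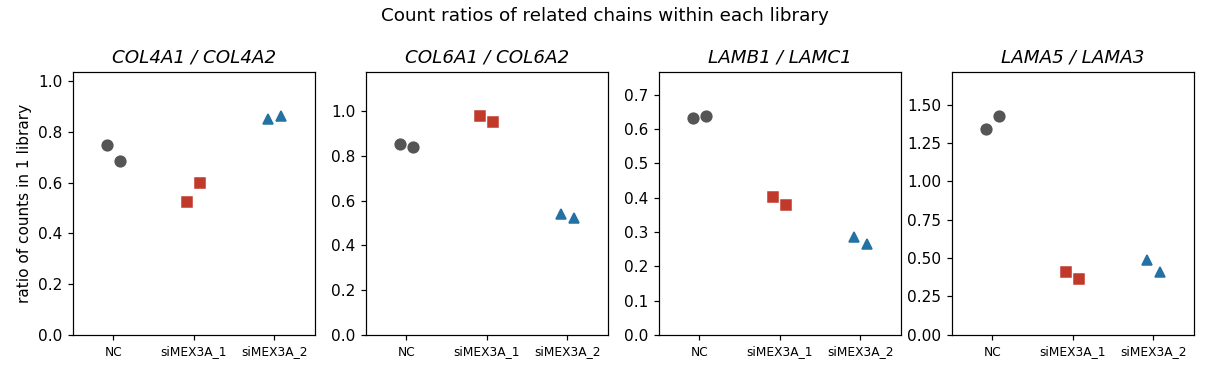
Ratio of the counts of 2 chains within each library (y axis, from 0), for 4 pairs of chains; points are libraries. LAMB1 to LAMC1 and LAMA5 to LAMA3 are lower in all siRNA libraries than in NC, whereas COL4A1 to COL4A2 and COL6A1 to COL6A2 lie on opposite sides of NC with the 2 siRNAs.

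Basement membrane linkers fell with both siRNAs except agrin. NID1, the nidogen that bridges laminin and collagen IV, had 7142 and 6553 normalized counts in NC, 3773 and 4074 with siMEX3A_1, and 1891 and 1757 with siMEX3A_2. Its groups were separate, with siMEX3A_2 the lowest. NID1 fell by 0.80 (SE 0.07, edgeR adjusted p = 5.67e-06) and by 1.91 (SE 0.07, edgeR adjusted p = 9.37e-08) on the log2 scale, with a direct difference of 1.10 (SE 0.07). HSPG2, which encodes perlecan, had 8795 and 8386 normalized counts in NC, 5388 and 5359 with siMEX3A_1, and 4365 and 4012 with siMEX3A_2. It fell by 0.68 (SE 0.05) and by 1.04 (SE 0.06) on the log2 scale. Exons of LDLRAD2 cover 11.6% of the HSPG2 exons on the other strand in GENCODE 29, and LDLRAD2 had at most 318 counts. AGRN, the proteoglycan agrin that binds laminin and dystroglycan, rose from 8020 ± 14.3 to 14365 ± 202 normalized counts with siMEX3A_1 (log2 fold change 0.84, SE 0.05) and had 8179 ± 382 with siMEX3A_2 (0.03, 95% interval -0.08 to 0.13, not called). The direct difference in AGRN was 0.81 (SE 0.05, edgeR adjusted p = 5.95e-07).

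Fibrillar collagens were low apart from COL1A1 and COL5A2. COL5A2, a chain of the collagen V that nucleates fibrils, had 368 and 358 normalized counts in NC, 856 and 951 with siMEX3A_1, and 1184 and 1207 with siMEX3A_2. Every siRNA library exceeded both NC libraries. COL5A2 rose by 1.31 (SE 0.07, edgeR adjusted p = 4.68e-07) and by 1.72 (SE 0.07, edgeR adjusted p = 2.05e-07) on the log2 scale. Its partner chain gene COL5A1 had between 4 and 11 counts in the libraries, and its log2 fold changes of -0.79 and 0.17 were not called. COL1A1 fell by 0.81 with siMEX3A_1 (SE 0.08, edgeR adjusted p = 2.96e-05) from 1200 ± 94.7 to 685 ± 17.9 normalized counts, and had 1110 ± 98.2 with siMEX3A_2 (-0.11, 95% interval -0.30 to 0.07, not called). COL1A2, which encodes the other chain of collagen I, had only 16 to 37 counts, and COL3A1 9 to 21. Neither was called with either siRNA. With siMEX3A_1 the 95% intervals ran from -0.89 to 0.79 for COL1A2 and from -1.66 to 0.19 for COL3A1. A fall of COL3A1 by 2-fold was thus not excluded.

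Of the 6 remaining collagen genes, 1 rose and 3 fell with siMEX3A_1 (27% and 25.9% of all tested genes). With siMEX3A_2, 2 rose and 3 fell (25.2% and 25.7%). COL8A1, COL6A2 and COL16A1 were called in opposite directions by the siRNAs. COL8A1, a short-chain collagen of sheet-like networks, had 1300 and 1110 normalized counts in NC, 1479 and 1717 with siMEX3A_1, and 413 and 420 with siMEX3A_2. It rose by 0.41 (SE 0.09, edgeR adjusted p = 0.00442) and fell by 1.53 (SE 0.10, edgeR adjusted p = 2.47e-06) on the log2 scale, with a direct difference of 1.94 (SE 0.10, edgeR adjusted p = 3.53e-07). COL6A1 and COL6A2 encode chains of the beaded-filament collagen VI. COL6A2 had 1190 and 1230 normalized counts in NC, 1028 and 975 with siMEX3A_1, and 1492 and 1434 with siMEX3A_2. It fell by 0.27 (SE 0.06, edgeR adjusted p = 0.00541) and rose by 0.27 (SE 0.06, edgeR adjusted p = 0.00516), the rise being lost without siMEX3A_2 replicate 1 (0.0524, range over alternatives 0.00394 to 0.0524). COL6A1 was at -0.08 with siMEX3A_1 (SE 0.07, not called) and fell by 0.40 with siMEX3A_2 (SE 0.07), so the ratio of COL6A1 to COL6A2 counts was 0.854 and 0.837 in NC, 0.979 and 0.950 with siMEX3A_1, and 0.539 and 0.523 with siMEX3A_2. COL16A1, a collagen that decorates fibrils, had 199 and 212 normalized counts in NC, 143 and 134 with siMEX3A_1, and 248 and 275 with siMEX3A_2. It fell by 0.57 (SE 0.12, edgeR adjusted p = 0.00239) and rose by 0.35 (SE 0.11, edgeR adjusted p = 0.0221). The COL16A1 fall was not called in the authors' deposited table (adjusted p = 0.0712, range over alternatives 0.00134 to 0.0712). Its rise ended without NC replicate 1 (0.100) or 2 (0.0506), without siMEX3A_2 replicate 2 (0.143), with DESeq2 (0.197) and in the authors' deposited table (0.214), the adjusted p running from 0.0192 to 0.214. COL12A1, also a fibril-associated collagen, fell by 0.83 and by 0.67 (SE 0.10 each), and the membrane-spanning COL13A1 was not called, with 78 to 99 counts.

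Enzymes of collagen folding and cross-linking differed between the siRNAs: all 6 were higher with siMEX3A_1 than with siMEX3A_2 in the direct comparison, where 26% of all tested genes were. With siMEX3A_2, 5 fell and 0 rose against NC (25.7% and 25.2% of all tested genes), and with siMEX3A_1, 3 rose and 1 fell (27% and 25.9%). PLOD2, the lysyl hydroxylase that prepares the ends of collagen chains for cross-linking, had 2814 and 2584 normalized counts in NC, 5690 and 6110 with siMEX3A_1, and 1484 and 1563 with siMEX3A_2. The siMEX3A_1 libraries lay above and the siMEX3A_2 libraries below NC. PLOD2 rose by 1.13 (SE 0.06, edgeR adjusted p = 5.39e-07) and fell by 0.82 (SE 0.07, edgeR adjusted p = 7.5e-06) on the log2 scale, a direct difference of 1.95 (SE 0.07, edgeR adjusted p = 3.57e-08). PLOD1, the lysyl hydroxylase of the helical part, had 1089 and 1063 normalized counts in NC, 1288 and 1258 with siMEX3A_1, and 499 and 447 with siMEX3A_2. It rose by 0.24 (SE 0.07, edgeR adjusted p = 0.0119) and fell by 1.19 (SE 0.07, edgeR adjusted p = 1.43e-06). The rise of PLOD1 ended without NC replicate 2 (0.0634) and in the authors' deposited table (0.0633), with adjusted p-values of 0.0102 to 0.0634 over the alternatives.

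LOXL2, a lysyl oxidase that cross-links collagen IV, had 8757 and 8335 normalized counts in NC, 8650 and 8536 with siMEX3A_1, and 2332 and 2225 with siMEX3A_2. The siMEX3A_1 libraries fell inside the NC range. LOXL2 fell by 1.91 with siMEX3A_2 (SE 0.05, 3.75-fold, edgeR adjusted p = 2.49e-08), was at 0.01 with siMEX3A_1 (95% interval -0.10 to 0.12, not called), and differed between them by 1.92 (SE 0.05, edgeR adjusted p = 1.53e-08). LOXL1, a lysyl oxidase of elastic fibres, had 126 and 145 normalized counts in NC, 80.9 and 84.7 with siMEX3A_1, and 54.0 and 41.1 with siMEX3A_2. It fell by 0.71 (SE 0.17, edgeR adjusted p = 0.00635) and by 1.51 (SE 0.19, edgeR adjusted p = 0.000111). The siMEX3A_1 call of LOXL1 ended without NC replicate 2 (0.0521), with DESeq2 (0.0692) and in the authors' deposited table (0.0722), the adjusted p running from 0.00392 to 0.0722. LOXL1 shares 232 exon bases, 9.87% of its exons, with the antisense gene LOXL1-AS1, which had up to 217 counts. Since no strand setting is given, reads in the shared bases cannot be told apart and the LOXL1 values are uncertain to that extent. LOX, the founding lysyl oxidase, rose by 0.36 with siMEX3A_1 (SE 0.07, edgeR adjusted p = 0.00202) and was at 0.14 with siMEX3A_2 (not called). SERPINH1, the collagen chaperone HSP47, fell by 0.33 with siMEX3A_2 (SE 0.06, edgeR adjusted p = 0.00131) and was at -0.07 with siMEX3A_1 (not called). The direct differences of LOX (0.22, SE 0.07, edgeR adjusted p = 0.0268, and 0.0135 to 0.155 over the alternatives), SERPINH1 (0.26, 0.00551, and 0.00166 to 0.0629) and LOXL1 (0.80, 0.00686, and 0.00604 to 0.0580) were the less certain among the 6. The LOX difference ended without siMEX3A_1 replicate 2 (0.117), siMEX3A_2 replicate 1 (0.155) or siMEX3A_2 replicate 2 (0.0975), with the replicate number as a block (0.0527), with library size as the only scaling (0.0563) and without a low-count filter (0.0549). That of SERPINH1 ended without siMEX3A_2 replicate 1 (0.0629) and that of LOXL1 without siMEX3A_2 replicate 2 (0.0580).

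Levels can be set across genes only per length, here as normalized counts per kilobase of merged exons in GENCODE 29. On that scale SPARC (6135 ± 140), FN1 (5422 ± 433) and THBS1 (4260 ± 330) led in NC, followed by LOXL2 (2408 ± 84.1) and COL4A1 (2300 ± 222), which did not differ beyond their spread, and by COL4A2 (1860 ± 65.8) and TGFBI (1858 ± 45.4), which did not either. With siMEX3A_1 the level of FN1 was 17884 and that of SPARC 1323, and with siMEX3A_2 FN1 stood at 13940 and THBS1 at 1004. COL1A1 was at 178 in NC and COL1A2 at 5.64, so the collagen I chains were far apart in these cells. Merged exons include every annotated variant, so a gene with long alternative exons appears lower than it is.

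Other genes of the matrix were counted from lists that were also chosen with earlier results of these data known. The shares called are a description only. The background was 52.9% of all tested genes called with siMEX3A_1 (27% higher, 25.9% lower). With siMEX3A_2 it was 50.9% (25.2% higher, 25.7% lower). Of 31 further collagen and laminin chain genes 17 were tested, and 7 rose and 5 fell with each siRNA, so that 70.6% were called. The second nidogen gene NID2 fell by 0.75 and 1.08 (SE 0.07 each), LAMA1 by 1.19 and 0.80 (SE 0.10 each) and COL14A1 by 1.21 and 0.32 (SE 0.09 each) with siMEX3A_1 and siMEX3A_2. Of 23 tested genes that modify, export or trim procollagen, 6 rose and 9 fell with siMEX3A_1, whereas 1 rose and 17 fell with siMEX3A_2. The share called was thus 65.2% and 78.3%, beside 52.9% and 50.9% of all tested genes, and the 6 that rose with siMEX3A_1 were near the background of 27%. In the direct comparison 14 of the 23 were higher with siMEX3A_1 and 2 lower, where 26% and 25.5% of all tested genes were (median difference 0.34, and -0.00 over all tested genes). P3H3, of the prolyl 3-hydroxylase family, fell by 0.46 and 2.03, the collagen galactosyltransferase COLGALT1 was at -0.16 (not called) and fell by 1.26, and P4HB, the disulfide isomerase subunit of prolyl 4-hydroxylase, rose by 0.72 and fell by 0.16.

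Among 19 tested matrix proteases and inhibitors, 3 rose and 11 fell with siMEX3A_1, and 3 rose and 7 fell with siMEX3A_2. The share called was 73.7% and 52.6%, beside 52.9% and 50.9% of all tested genes, so that with siMEX3A_2 it was near the background. ADAMTS1 and ADAMTS9 encode versican-cleaving proteases. ADAMTS1 had 3772 and 3398 normalized counts in NC, 8425 and 9551 with siMEX3A_1, and 1619 and 1594 with siMEX3A_2 (direct difference 2.48, SE 0.08). ADAMTS9 was at -0.03 (not called) and fell by 2.29, and the membrane-bound protease gene MMP15 fell by 1.44 and 2.72. Of 13 tested proteoglycan and elastic fibre genes, 2 rose and 9 fell with siMEX3A_1 and 1 rose and 8 fell with siMEX3A_2 (84.6% and 69.2% called, beside 52.9% and 50.9% of all tested genes), among them MATN2 (-0.46 and -1.30) and FBLN5 (-1.82 and -0.57). FBLN1 fell by 1.12 with siMEX3A_1 and was at -0.20 with siMEX3A_2 (not called).

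TGF-beta is a main inducer of matrix genes. Of 15 tested genes of its pathway, 5 rose and 6 fell with siMEX3A_1, and 7 rose and 4 fell with siMEX3A_2, so that 73.3% were called with each, beside 52.9% and 50.9% of all tested genes. TGFB1 had 1938 and 1983 normalized counts in NC, 2470 and 2361 with siMEX3A_1, and 440 and 429 with siMEX3A_2. The ligand gene rose by 0.30 (SE 0.06) and fell by 2.17 (SE 0.07), while LTBP2, of the latent TGF-beta binding protein family, fell by 0.16 and rose by 1.10, and the signal transducer SMAD3 fell by 0.82 and rose by 0.22. Of 12 non-integrin matrix receptors, 4 rose and 6 fell with siMEX3A_1 and 4 rose and 7 fell with siMEX3A_2 (83.3% and 91.7% called, beside 52.9% and 50.9% of all tested genes). DAG1, which encodes dystroglycan, a receptor for laminins, agrin and perlecan, went from 3146 and 3072 normalized counts in NC to 334 and 321 with siMEX3A_1 and 1416 and 1401 with siMEX3A_2, log2 fold changes of -3.25 and -1.14 (SE 0.07 and 0.06). The proteoglycan gene GPC1 rose by 1.28 and 1.66. HMMR, a hyaluronan-binding protein that also serves the mitotic spindle, fell by 2.39 and rose by 0.51.

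**Figure D5:**
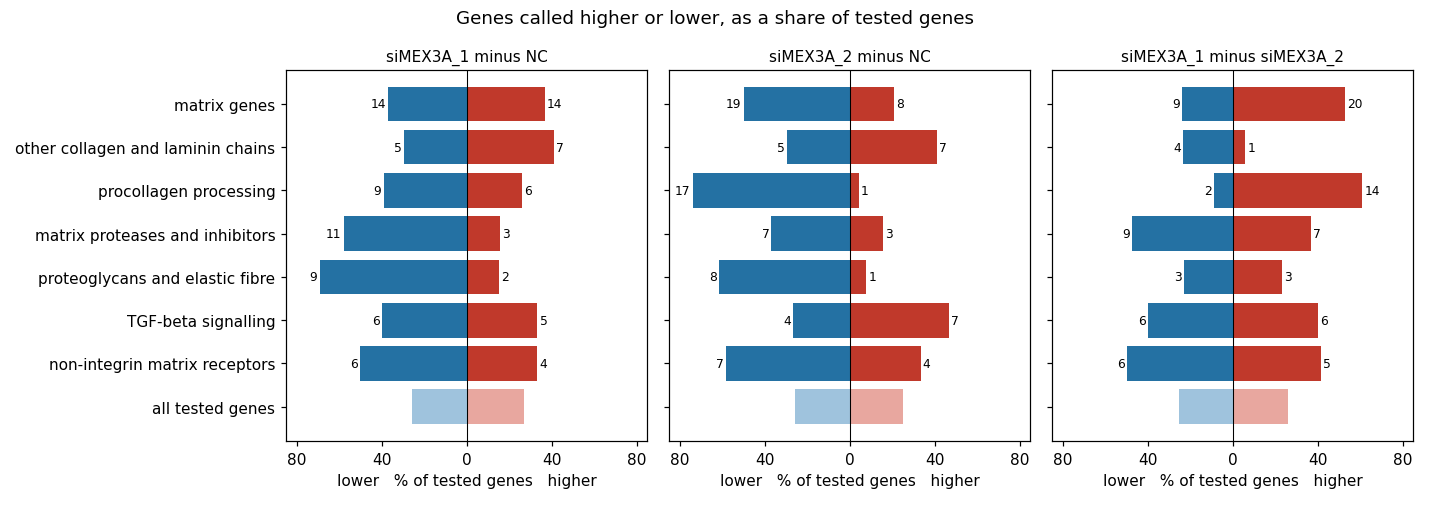
Share of the tested genes of each list called higher (right, red) or lower (left, blue) in 3 comparisons (x axis, percent of tested genes), with the number of genes beside each bar; the pale bars at the bottom are all tested genes. Procollagen processing genes are mostly lower with siMEX3A_2 (17 of 23) and mostly higher in the direct comparison (14 of 23).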

How the data were processed

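RNA sequencing counts of 6 libraries in 3 groups were analysed. The authors deposited expected counts for each gene, which were taken to be without normalization. This was not tested. The submitters' processing notes name STAR, RSEM, GRCh37 and hg19, and versions and the strand setting are not given in the sources used here. The remaining columns, named in the manner of DESeq2, hold the comparison the authors deposited: log2 fold change with its error, p-value and adjusted p-value, and mean count and test statistic, the last pair treated as deposited scores and not used.

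Expected counts were rounded and fitted in R 4.3.3 with edgeR 4.0.16 (quasi-likelihood test, TMM scaling), its default filter on low counts and 1 estimate of spread over all libraries, and 18583 rows were tested. P-values were adjusted by Benjamini-Hochberg over all of them and called under 0.05. The biological coefficient of variation was 6.26%. Each standard error was taken as the log2 change over the root of its F statistic. Rows that share a name (4481) stayed separate. Chi-square over degrees of freedom between libraries of a group was 4.22, 5.43 and 2.37, so they differed by more than counting noise. This cannot tell separate cultures from separate preparations of the same RNA. On simulated counts, the test found 69% of 100 altered genes at a log2 change of 1 for siMEX3A_1 (17939 genes tested) and 57% for siMEX3A_2 (17929 genes tested), and 46% and 44% at 0.5. Of the unchanged genes, 10 and 7 were called. Far fewer genes were altered there than are called in the data, so these rates do not give the power of the reported tests.

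Members and lists were chosen with earlier results of these data known. Any member could be named; values per library are given for members called in opposite directions, changed at least 2-fold or among the 5 highest, and for COL4A1, added as the neighbour of COL4A2. Other lists name up to 3 genes by lowest p. Alternatives were DESeq2 1.42.0, other scalings and filters, fits of 2 groups, a replicate block, and leaving out each library. Promoter windows were found in RefSeq (GRCh38.p14) for 32 of 40 members. That build was used for sequences only.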

Additional observations from a re-analysis of the deposited data

Results flagged for a closer look

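The members below were called in opposite directions against NC by the 2 siRNAs. The direct test of siMEX3A_1 minus siMEX3A_2 with edgeR (adjusted p-values from 3.57e-08 to 9.89e-05) used the same fit. Opposite calls nearly fix the outcome of that test, so it adds no support. The share of all tested genes called in opposite directions was not counted. The list is thus a description only and gives no trait of matrix genes. The direct log2 difference was 1.67 for COL18A1, 1.94 for COL8A1, 1.43 for PLOD1 and 1.95 for PLOD2, all higher with siMEX3A_1. It was -0.55 for COL6A2 and -0.92 for COL16A1, both lower with siMEX3A_1. The separate calls of COL16A1 in both comparisons, of COL6A2 with siMEX3A_2 and of PLOD1 with siMEX3A_1 were each lost under at least 1 alternative.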

How the results depend on the processing

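The numbers of members and of all genes called stayed within 1.5 times of their main values under every alternative run. Leaving out 1 library at a time gave 13 to 15 members higher and 13 to 15 lower with siMEX3A_1, 6 to 7 and 18 to 19 with siMEX3A_2, and 16 to 21 and 7 to 9 in the direct comparison. It gave medians of the members from -0.1073 to -0.02562, -0.3929 to -0.3201 and 0.2231 to 0.2747. With library size as the only scaling the median was -0.1306 with siMEX3A_1 and 0.2243 in the direct comparison, beside -0.07 and 0.27. Calls of 3 members with siMEX3A_1, 4 with siMEX3A_2 and 7 in the direct comparison were lost under at least 1 alternative. Beside those in the report this was the direct difference of COL6A1 (adjusted p from 0.00309 to 0.0505). The cause was not tested.

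The only values that changed sign were of members not called: LOXL2 with siMEX3A_1 with library size only (-0.05381), with a minimum mean of 50 counts (-0.01925) and without NC replicate 2 (-0.02481); THBS1 with siMEX3A_1 without NC replicate 2 (-0.01104) and without siMEX3A_1 replicate 2 (-0.02329); COL1A2 with siMEX3A_1 without NC replicate 1 (0.06641) and siMEX3A_1 replicate 2 (0.2991). Leaving out libraries in turn took these as far as 0.05311 for LOXL2, 0.1601 for THBS1 and -0.498 for COL1A2. COL13A1 without NC replicate 2 was at 0.08816 with siMEX3A_1 and 0.06274 with siMEX3A_2, and without siMEX3A_2 replicate 2 at 0.01124, the other ends of the ranges being -0.1863 and -0.2123. AGRN with siMEX3A_2 without its replicate 1 was at -0.01592 (up to 0.08672). In the direct comparison COL13A1 was at -0.024 with library size only and -0.06612 without siMEX3A_2 replicate 2, COL1A2 at -0.03095 and FBN1 at 0.02567 without siMEX3A_1 replicate 1, FBN2 at -0.2159 without siMEX3A_1 replicate 2 and -0.2099 without siMEX3A_2 replicate 1, and LAMA5 at 0.04902 without that library. The other ends were 0.1119 for COL13A1, 0.8742 for COL1A2, -0.1289 for FBN1, 0.4026 for FBN2 and -0.1014 for LAMA5.

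The labels number the libraries 1 and 2 in each group but do not say that a number marks a shared source. Deviations of same-numbered libraries correlated at -0.11 for NC and siMEX3A_1, 0.03 for NC and siMEX3A_2 and -0.01 for the siRNAs. With the replicate block 14 members were higher and 14 lower with siMEX3A_1, 8 and 19 with siMEX3A_2, and 19 and 9 in the direct comparison, with medians of -0.07854, -0.3829 and 0.2698, and the LOX difference was the 1 member call that changed. All genes called higher and lower under the block numbered 4747 and 4581, 4425 and 4507, and 4562 and 4539. With the numbers of siMEX3A_1 crossed, an alternative chosen after seeing the data, 14 members were higher and 14 lower.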

Other observations

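A few genes of collagen folding in the endoplasmic reticulum are given here, chosen after their values were seen, and they do not stand for the group. P4HA1, the catalytic subunit of prolyl 4-hydroxylase, stood at normalized counts of 1810 and 1830 in NC, 2561 and 2604 with siMEX3A_1, and 1089 and 1269 with siMEX3A_2. PPIB, the cyclophilin that speeds collagen folding, had 3045 and 3332 in NC, 5400 and 5346 with siMEX3A_1, and 2115 and 2229 with siMEX3A_2. P3H1, the prolyl 3-hydroxylase that works in a complex with PPIB, went from 862 ± 68.4 to 1101 ± 75.7 and to 566 ± 23.1. These 3 genes were called higher with siMEX3A_1 and lower with siMEX3A_2. CRTAP, the other partner of P3H1 and PPIB in that complex, was called lower with both (-0.18 and -0.19), as were the folding gene FKBP10 (-0.28 and -0.18) and P3H4 (-0.39 and -0.75). The lysyl hydroxylase gene PLOD3 was called with siMEX3A_2 alone: its normalized count was 2467 ± 10.5 in NC, then 2439 ± 47.1 for siMEX3A_1 and 1277 ± 88.9 for siMEX3A_2 (SD, n = 2 libraries).

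The proteoglycan gene VCAN, which encodes versican, the substrate of ADAMTS1 and ADAMTS9, stood at normalized counts of 13926 and 11159 in NC, 7041 and 8729 with siMEX3A_1, and 6943 and 7362 with siMEX3A_2. COL8A2, which encodes the partner chain of COL8A1, fell from a normalized count of 44.8 ± 2.91 in NC to 4.57 ± 0.689 for siMEX3A_1 and 5.01 ± 2.83 for siMEX3A_2, so it was low with both siRNAs while COL8A1 rose with siMEX3A_1. The microfibril gene MFAP2 had 19.9 and 14.6 in NC and at most 2.04 in the siRNA libraries. MFAP5, another microfibril gene of the same list, had log2 fold changes of 0.19 with siMEX3A_1 and 0.77 with siMEX3A_2, neither called. VCAN, COL8A2 and MFAP2 were also chosen after their values were seen and do not stand for their lists.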
